A study of Mus musculus with 3 samples.

Results

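The collagen genes and the enzymes that process collagen were examined in ST2 cells, a mouse bone marrow stromal cell line. Collagen chains wind around each other in trimers to form a triple helix, and the helix needs glycine at the start of each Gly-X-Y triplet. Prolyl hydroxylation steadies the helix, lysyl hydroxylation and galactosylation decorate it, propeptide cleavage lets fibrillar procollagen assemble, and lysyl oxidases cross-link the fibrils. In bone and its stroma collagen I is the main fibril, with collagens III and V in the same fibrils, whereas collagen II with collagen XI is the fibril known from cartilage. Fibronectin fibrils are known as a scaffold on which cultured fibroblasts lay down collagen.

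Members were all rows of the deposited table named as a collagen chain (Col, a number, a, a number), with 17 genes for collagen chaperoning, modification, cleavage and cross-linking. The rule found 61 genes of 51826, comprising 44 collagen chains and 17 enzymes and chaperones. All libraries came from ST2 cells kept with 10% FBS, in DMEM by the labels and in α-MEM by the study's methods, and given plasmid and siRNA together by lipofection. Control cells received vector with control siRNA. Cells overexpressing NELL2 received its expression construct with control siRNA, and Fn1 knockdown cells received vector with siRNA against Fn1, at 30 nM. NELL2 is a secreted glycoprotein, and Fn1 encodes fibronectin. Each of the 3 groups had 1 library, so every difference is one between libraries and has no replicate check and no test. The comparisons addressed which collagen pathway transcripts differ when NELL2 is raised or fibronectin is lowered, and they share the control library.

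Levels are FPKM, fragments scaled to transcript length and to the total of the library, so levels of different genes may be set side by side. Differences are log2 ratios of FPKM + 1 to the control, which understates the ratio of genes at low FPKM. Ratios are given for genes that reach 1 FPKM in at least 1 library, and a gene at or past 2-fold on this scale is called.

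Nell2 was at 0.640 FPKM in control cells, 326 FPKM with the construct and 1.06 FPKM after Fn1 knockdown. Fn1 was at 2802 FPKM in the control, 2489 FPKM in the NELL2 library and 137 FPKM (4.88% of the control) in its own knockdown, so both targets differed in the labelled direction. Estimated depth was 23000000 to 24200000 fragments. All 8 stromal markers examined reached 1 FPKM, with summed levels of 1244 to 1262 FPKM. No epithelial marker of 3 reached 1 FPKM, and Epcam was at 0 in all libraries. Of 3 blood markers 2 reached 1 FPKM, and the summed level was 15.9 FPKM in control cells, 17.5 FPKM with NELL2 and 8.83 FPKM after Fn1 knockdown. Lyz2 was at 11.8, 13.9 and 7.22 FPKM and Cd68 at 4.08, 3.54 and 1.57 FPKM, whereas Ptprc was at or below 0.0633 FPKM. The part of this in the results was not tested.

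Of the 61 members, 43 reached 1 FPKM in at least 1 library. These were 26 of the 44 chains and all 17 enzymes, and 35 of them reached 10 FPKM. Just inside the limit were Col9a2, Col27a1 and Col10a1, with highest values of 1.19, 1.25 and 2.17 FPKM. Just outside were Col24a1, Col23a1 and Col17a1, with highest values of 0.832, 0.701 and 0.495 FPKM. The other members below 1 FPKM in every library were Col14a1, Col19a1, Col20a1, Col22a1, Col4a3, Col4a4, Col4a6, Col6a4, Col6a5, Col6a6, Col15a1, Col26a1, Col28a1, Col13a1 and Col25a1. The fibrillar chain Col24a1, nearest the limit and read after its values were seen, was at 0.240, 0.393 and 0.832 FPKM in the control, NELL2 and Fn1 knockdown libraries, or about 39, 67 and 144 estimated fragments. It was thus highest after knockdown, though below the limit for a ratio. Among these 18 members, Col6a6 and Col13a1 were listed at 0 in the NELL2 overexpression library. All 4 transmembrane collagens, XIII, XVII, XXIII and XXV, were thus below the limit.

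The chains differ in how long their helix runs without a break, which can be read from their codons, since all glycine codons begin with GG. The longest run of Gly-X-Y codons in GENCODE M21 coding sequence was 337 to 344 triplets in Col1a1, Col1a2, Col2a1, Col3a1, Col5a1, Col5a2, Col5a3, Col11a1 and Col11a2. It was 216 triplets in Col24a1 and 217 in Col27a1. Outside the fibrillar group the longest run was 113 triplets, in each of the 3 collagen IX genes and in Col22a1, and 32 triplets in Col12a1. The first 54 bases of that run are shown for the main bone chain, for the chain farthest from the control after Fn1 knockdown, for 2 other fibrillar chains that were higher in that library and for a basement membrane chain with a broken helix. Capitals mark the GG that opens each glycine codon, and each stretch is written 5′ to 3′ on the coding strand.
Col1a1, exons 6 to 7, chr11:94939451-94939741, plus strand: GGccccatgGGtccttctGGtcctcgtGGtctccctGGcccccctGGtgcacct
Col2a1, exons 8 to 9, chr15:97996648-97997320, minus strand: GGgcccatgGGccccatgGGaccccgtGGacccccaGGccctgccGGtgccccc
Col5a2, exons 8 to 9, chr1:45423682-45426996, minus strand: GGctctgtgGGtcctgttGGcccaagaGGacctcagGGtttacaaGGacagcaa
Col11a1, exons 14 to 15, chr3:114105402-114108289, plus strand: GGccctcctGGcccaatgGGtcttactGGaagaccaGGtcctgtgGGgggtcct
Col4a1, exons 2 to 3, chr8:11247060-11267614, minus strand: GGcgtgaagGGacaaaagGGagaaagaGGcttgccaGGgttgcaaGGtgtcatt
Positions are on GRCm38 and span the intron between the exons named. The repeat is shared but the letters between the capitals are not. The longest stretch of the Col2a1 transcript found unbroken in any of the 25 other chains at 1 FPKM or more was 14 to 23 bases, the longest in Col1a1, against reads of 150 bases.

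In control cells collagen I led the chains and Lox the enzymes. Col1a1 was at 1494 FPKM, the gene ranked 21 in the whole table, and Col1a2 at 897 FPKM ranked 39. Next came Col5a2 at 306 FPKM, Col2a1 at 299.6 FPKM, Col5a1 at 249.9 FPKM and Col6a1 at 226 FPKM. Among the enzymes, the lysyl oxidase Lox was at 775 FPKM, followed by P4hb at 341 FPKM, the collagen chaperone Serpinh1 at 322 FPKM and Loxl2 at 308 FPKM. In all, 19 members were at 100 FPKM or more in the control.

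**Figure D1:**
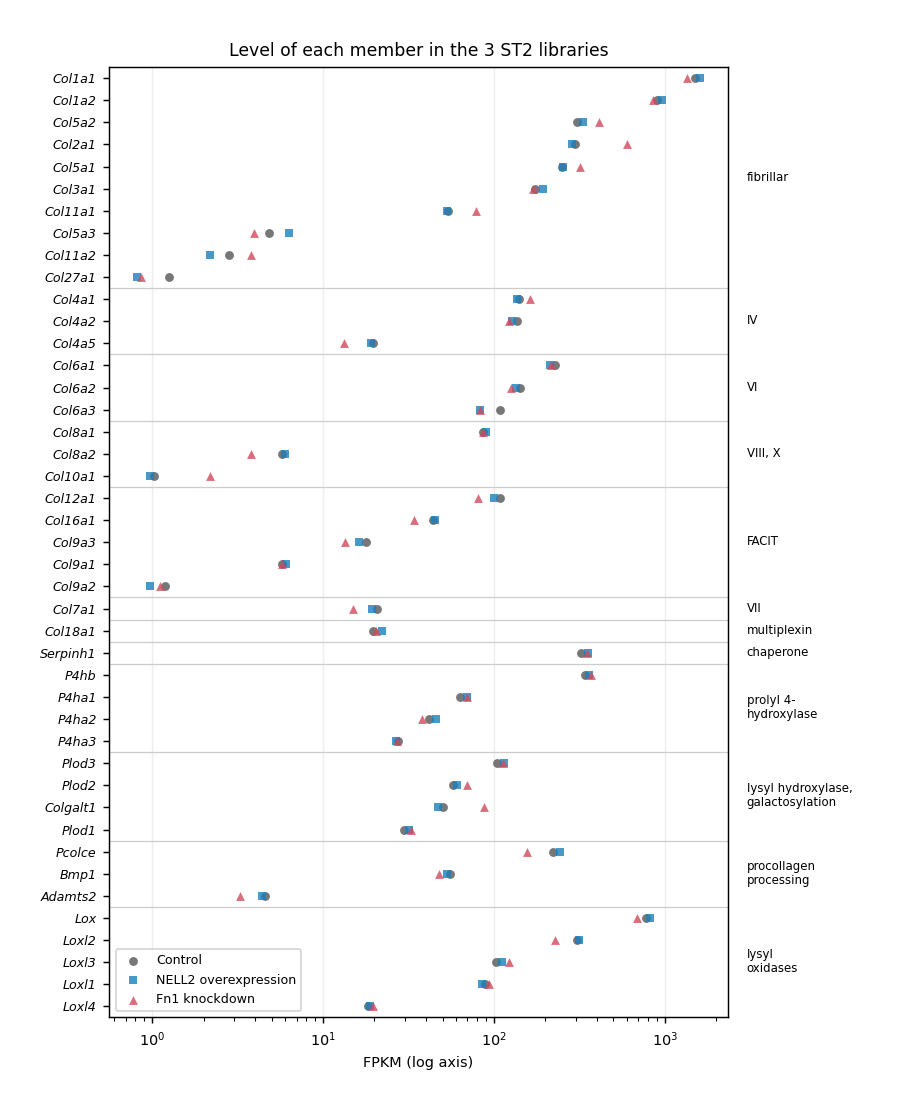
Level of the 43 members at 1 FPKM or more in the control (grey circles), NELL2 overexpression (blue squares) and Fn1 knockdown (red triangles) libraries, in FPKM on a log axis and grouped by role, with 1 library per point. Symbols of a gene mostly overlie each other, and the Fn1 knockdown triangles of Col2a1 (602 FPKM), Col11a1 (78.9 FPKM) and Colgalt1 (87.0 FPKM) stand to the right of the other libraries while that of Pcolce (155 FPKM) stands to the left.

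With NELL2 overexpression the members' log2 ratios spanned -0.37 to 0.32. None of the 43 members was called (against 0.644% of all 12733 genes), and none passed 1.5-fold, against 2.58% of all genes, shares so low that no call among 43 genes is near the background. At 1.25-fold, a limit chosen after the data had been seen, Col5a3 was higher (1 of 43, 2.33%, against 5.49% of all genes) and Col6a3 was lower (1 of 43, 2.33%, against 4.05%). Of the members, 32 of 43 lay within 10% of the control level, and 60.5% of all genes did. This share was not read among abundant genes alone, though most members are abundant. The median log2 ratio was 0.030 over members, with 23 higher and 20 lower, and 0.007 over all genes.

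After Fn1 knockdown the members spread more widely than with NELL2, in both directions, and so did all genes. Member ratios had a standard deviation of 0.35 after knockdown, near the 0.34 of all genes. With NELL2 these values were 0.13 and 0.25. Col2a1 alone was called (1 of 43, 2.33%, against 1.22% of all genes). With Colgalt1 and Col10a1, 3 of 43 members (6.98%) passed 1.5-fold, all higher, against 6.17% of all genes, which is near the background. At 1.25-fold, 7 members were higher (16.3%, against 10.1% of all genes) and 10 were lower (23.3%, against 11.9%). The median was -0.040, with 20 higher and 23 lower, and -0.003 over all genes, so the list as a whole did not shift to one side. Within 10% of the control were 16 of 43 members, and 40.7% of all genes.

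Members are mostly abundant genes, so the 1.25-fold counts were also read among genes at 10 FPKM or more. There, with NELL2, 0 of 35 members were higher (against 4.38% of 6524 genes) and 1 of 35 lower (2.86%, against 2.97%). In the same set 5 of 35 members were higher after Fn1 knockdown (14.3%, against 10.3%) and 8 of 35 lower (22.9%, against 9.69%). These shares were not tested. Because both comparisons use the control library, the Fn1 knockdown library was also required to lie 1.25-fold beyond both others, a rule chosen after the data had been seen. Above both were Col2a1, Col10a1, Col11a1, Col11a2, Col5a1 and Colgalt1 (6 of 43, 14.0%, against 5.69% of all genes). Below both were Col4a5, Col7a1, Col8a2, Col16a1, Pcolce, Adamts2 and Loxl2 (7 of 43, 16.3%, against 7.63%). Among genes at 10 FPKM or more the counts were 4 of 35 above (11.4%, against 5.99%) and 5 of 35 below (14.3%, against 6.28%). These too were not tested.

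**Figure D2:**
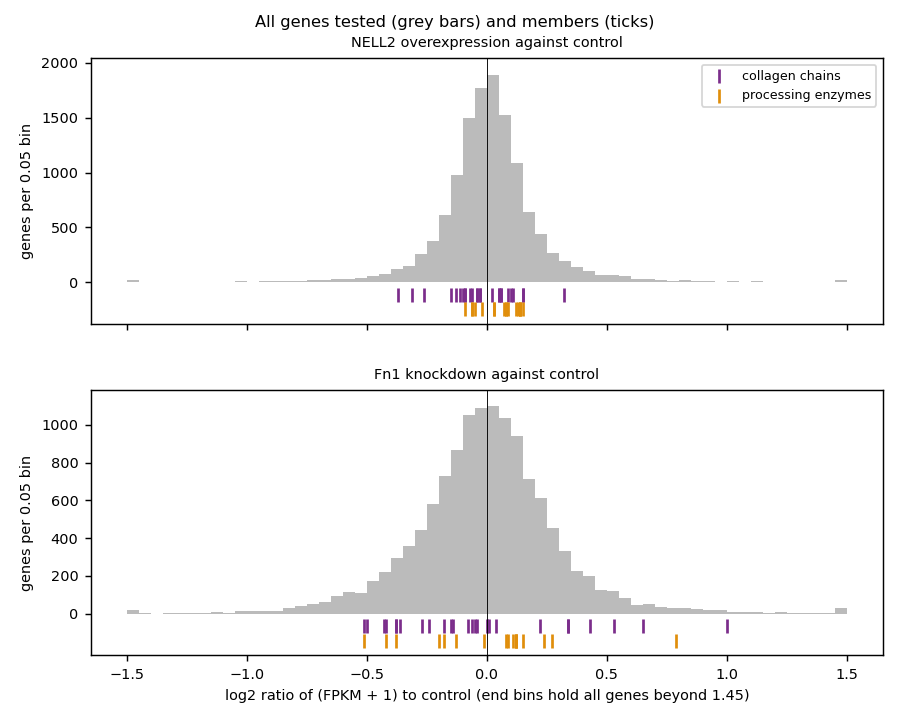
Number of genes per bin of the log2 ratio of FPKM + 1 to the control over the 12733 genes at 1 FPKM or more (grey bars), with a tick for each of the 26 collagen chains (purple) and 17 enzymes (orange), for NELL2 overexpression (top) and Fn1 knockdown (bottom). With NELL2 the member ticks span -0.37 to 0.32, and after Fn1 knockdown they span -0.51 to 1.0, Col2a1 being the rightmost.

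Collagen I, the bulk of the fibril in bone, was similar in all libraries. Col1a1 encodes the alpha 1 chain and was at 1494 FPKM in control cells, 1601 FPKM with NELL2 and 1352 FPKM after Fn1 knockdown, ranking 21 each time. Col1a2, the alpha 2 chain, was at 897, 957 and 848 FPKM in the same order. Both were highest with NELL2 and lowest after Fn1 knockdown, with log2 ratios of 0.10 and 0.09, and of -0.14 and -0.08. A collagen I trimer normally holds more alpha 1 than alpha 2 chains, and the ratio of Col1a1 to Col1a2 FPKM was 1.67, 1.67 and 1.59. Col3a1, the chain of the collagen III homotrimer, was at 173, 193 and 169 FPKM and kept the same order of libraries.

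Col2a1 had the largest log2 ratio of FPKM + 1 among members, although the plain FPKM ratio of the low Col10a1 was larger. It encodes the chain of collagen II and lies on GRCm38 chromosome 15 (97975602 to 98004695, minus strand, ENSMUSG00000022483.17), where no exon of another gene overlaps its exons. It was at 299.6 FPKM in control cells, 287 FPKM with NELL2 and 602 FPKM after Fn1 knockdown. The control and NELL2 libraries were alike and the Fn1 knockdown library was at 201% of the control, a log2 ratio of 1.0, from about 35119.5 to about 74233 estimated fragments. Its rank in the table moved from 193 to 74, and its level relative to Col1a1 from 0.201 to 0.445. The ratio lay at the 2-fold limit, and with a pseudocount of 5 in place of 1 it was 0.99.

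Other cartilage genes were read beside Col2a1. Of the 4 cartilage markers 3 reached 1 FPKM, with a summed level of 32.6 FPKM in control cells, 30.3 FPKM with NELL2 and 35.0 FPKM after Fn1 knockdown. The transcription factor Sox9 was at 13.4, 11.9 and 12.6 FPKM, the proteoglycan Acan at 6.75, 5.17 and 7.54 FPKM and the matrix protein Comp at 12.4, 13.2 and 14.9 FPKM. Matn1 was at 0 in all libraries. After Fn1 knockdown their log2 ratios were -0.09, 0.14 and 0.25, each closer to the control than that of Col2a1, whereas with NELL2 they were -0.16, -0.33 and 0.08. In bulk RNA, more cells that express a gene and more transcript per cell cannot be told apart.

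Of the 5 chains of collagens V and XI, which form mixed fibril cores, 4 were higher after Fn1 knockdown. Over the 10 measured fibrillar chains, 5 were higher and 5 lower. The lower ones include Col27a1, which passed the limit only through the control library, while Col24a1 fell just below the limit and was not counted. Col11a1 was at 54.2 FPKM in control cells, 53.1 FPKM with NELL2 and 78.9 FPKM after knockdown, a log2 ratio of 0.53. Col11a2 was much lower, at 2.80, 2.18 and 3.80 FPKM, and again highest after knockdown, at 136% of the control. Col5a2 was at 306, 332 and 412 FPKM and Col5a1 at 249.9, 254 and 317 FPKM, with log2 ratios of 0.43 and 0.34 after knockdown. In these 4 genes the Fn1 knockdown library was the highest, as it was in 37.9% of all genes, and the NELL2 library was within 10% of the control for all but Col11a2. Col5a3, the rarest chain of collagen V, had another pattern, at 4.85 FPKM in control cells, 6.32 FPKM with NELL2 and 3.97 FPKM after knockdown. Its NELL2 ratio of 0.32 was the highest of any member. Col27a1 was at 1.25 FPKM in the control and below 1 FPKM in the other libraries.

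Summed over all 44 chains, collagen FPKM was 4568 in the control, 4710.2 with NELL2 and 4776 after Fn1 knockdown, or 1.15%, 1.18% and 1.21% of all FPKM. The sum was thus nearly level, at 103% and 105% of the control, but its makeup after Fn1 knockdown was not. Col1a1, Col1a2 and Col3a1 together took 56.1% of it in the control, 58.4% with NELL2 and 49.6% after knockdown. The sum without these genes was 97.8% of the control with NELL2 and 120.1% after knockdown. Col2a1 took 6.56%, 6.09% and 12.6% of the full sum. The 5 genes Col2a1, Col5a1, Col5a2, Col11a1 and Col11a2, grouped after their values had been seen, summed to 913, 927 and 1413 FPKM, or 20.0%, 19.7% and 29.6% of the pool. Without Col2a1, a choice made after the data had been seen, the collagen sum after Fn1 knockdown was 97.8% of the control. Col5a1, Col5a2 and Col11a1 were also higher after knockdown, so the excess is not shown to rest on Col2a1 alone.

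**Figure D3:**
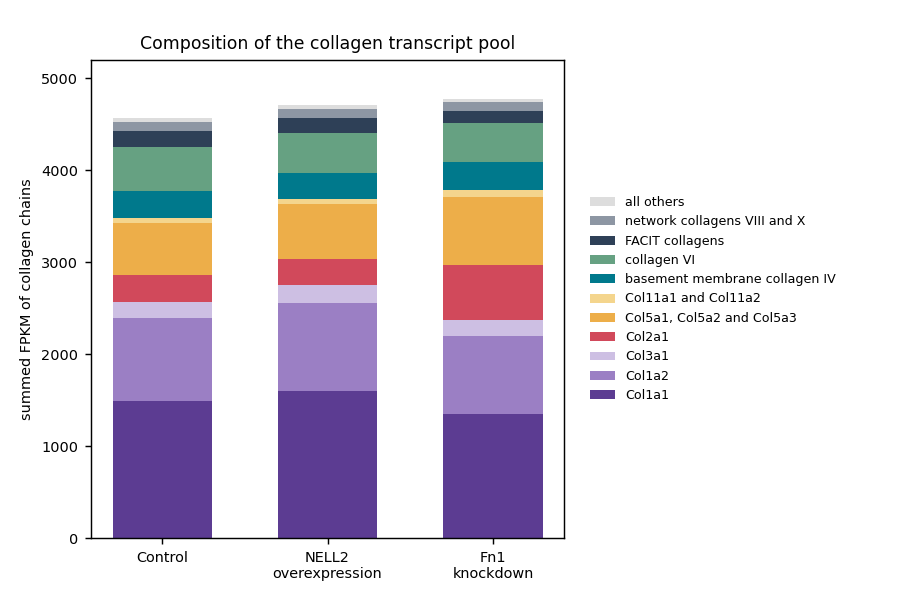
Summed FPKM of all collagen chains in each library, stacked by chain or collagen type, with 1 library per bar. The bars reach 4568, 4710.2 and 4776 FPKM, and the red Col2a1 band is 287 FPKM with NELL2 and 602 FPKM after Fn1 knockdown.

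Collagen IV, the network of basement membranes, showed unequal chains. Col4a1 was at 140.3 FPKM in control cells, 137 FPKM with NELL2 and 163 FPKM after Fn1 knockdown, whereas Col4a2 was at 137, 128 and 123 FPKM. The chains, which join in the same trimer, were thus close in the control and parted after Fn1 knockdown, and their FPKM ratio went from 1.02 and 1.07 to 1.33. The genes sit head to head on chromosome 8, Col4a1 on the minus strand (11198423 to 11312826) and Col4a2 on the plus strand (11312805 to 11449287). Their RefSeq starts overlap, and the bases transcribed in both directions are shown because both genes begin there, written on the plus strand with GGGCGG, the core of a GC box, in capitals.
Col4a1 and Col4a2 shared start, chr8:11312805-11312826: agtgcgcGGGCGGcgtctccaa
The overlap is 22 bases (GRCm38.p6), and whether counting used the strand is not given in the sources used here. Col4a5, an X-linked chain of another collagen IV trimer, was at 19.5 FPKM in control cells, 19.0 FPKM with NELL2 and 13.3 FPKM after Fn1 knockdown. The knockdown library was the low one, at 68.6% of the control.

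Collagen VI, which forms beaded microfibrils around cells, had its highest level in the control in all 3 chains measured, as did 30.3% of all genes. Col6a1 was at 226, 213 and 217 FPKM in the same order and Col6a2 at 142, 135 and 125 FPKM. Col6a3 encodes the large alpha 3 chain and was at 108 FPKM in control cells, 83.2 FPKM with NELL2 and 82.5 FPKM after knockdown. It was the lowest member ratio with NELL2, at -0.37, and nearly equal in both treated libraries, so the control stood apart. Relative to Col6a1 its level went from 0.476 to 0.391 and 0.380. The summed collagen VI level was 90.8% and 89.3% of the control, and of the 3 chains Col6a3 alone was lower by 1.25-fold, as were 4.05% of all genes with NELL2 and 11.9% after knockdown.

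The fibril-associated collagens with interrupted helices (FACIT) sit on the surface of fibrils. Of the 5 measured, 4 were lower after Fn1 knockdown, as were 6429 of all 12733 genes, and 3 were lower by 1.25-fold, against 11.9% of all genes. Col12a1 was at 108 FPKM in control cells, 100.2 FPKM with NELL2 and 80.3 FPKM after knockdown, and Col16a1 at 43.9, 45.4 and 33.9 FPKM. Col9a3 was at 17.9, 16.3 and 13.5 FPKM. In these 3 genes the Fn1 knockdown library was the lowest, as it was in 40.4% of all genes, with log2 ratios of -0.42, -0.36 and -0.38. Col9a3 lies opposite exons of Tcfl5, which was at 14.2, 14.1 and 12.9 FPKM, and their reads cannot be told apart without strand. The collagen IX chains, which coat collagen II fibrils in cartilage, did not follow Col2a1, Col9a1 being at 5.75, 6.05 and 5.75 FPKM and Col9a2 at or below 1.19 FPKM. The list's median log2 ratio was -0.362 after knockdown and -0.107 with NELL2, and its summed FPKM was 177, 169 and 135.

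The remaining chains were few and mixed. Col7a1, the anchoring fibril chain, was at 20.6 FPKM in control cells, 19.3 FPKM with NELL2 and 15.0 FPKM after Fn1 knockdown. Col8a1 and Col8a2 encode the short-chain network collagen VIII, and Col8a1 was level at 85.9, 89.7 and 86.2 FPKM while Col8a2 was at 5.79 and 6.01 FPKM and then 3.79 FPKM after knockdown. Col18a1, the source of endostatin, was at 19.7, 22.0 and 20.3 FPKM. Col10a1, known from hypertrophic cartilage, was at 1.02 FPKM in control cells, 0.978 FPKM with NELL2 and 2.17 FPKM after knockdown. It was thus at 212% of the control with a log2 ratio of 0.65, from about 73 to about 164 estimated fragments. Col10a1 (chromosome 10, 34389981 to 34397085, plus strand) lies opposite exons of Nt5dc1, which was at 3.71, 4.92 and 5.04 FPKM, and reads of the 2 genes cannot be told apart without strand.

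**Figure D4:**
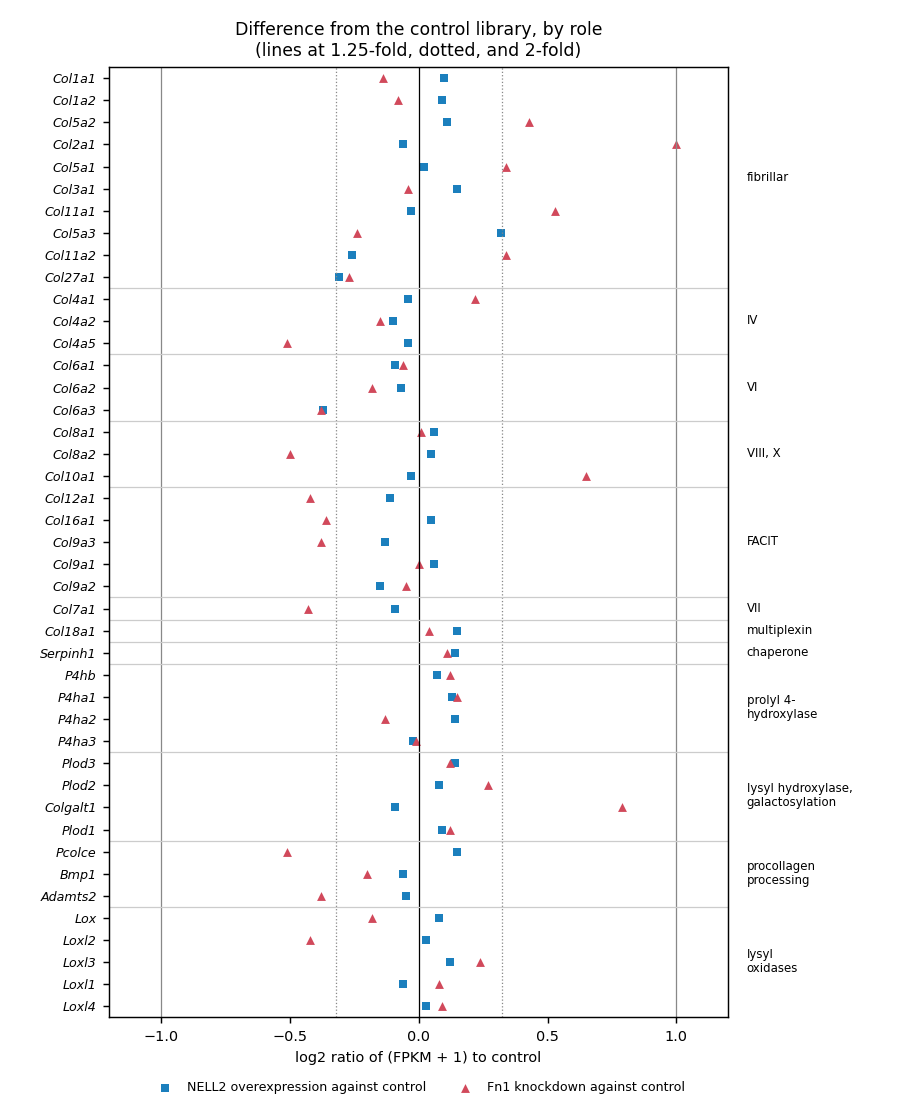
Log2 ratio of FPKM + 1 to the control for each of the 43 members, with NELL2 overexpression as blue squares and Fn1 knockdown as red triangles, grouped by role and without error bars since there is 1 library per group. Squares stay between -0.37 and 0.32, whereas triangles reach 1.0 for Col2a1 and 0.79 for Colgalt1 on the right and -0.51 for Pcolce and Col4a5 on the left.

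Of the 9 members that act in the endoplasmic reticulum, all but Colgalt1 lay within 1.25-fold of the control in both comparisons. Most genes did so, since with NELL2 5.49% of all genes were higher and 4.05% lower by 1.25-fold. After Fn1 knockdown these shares were 10.1% and 11.9%. Serpinh1 encodes Hsp47, the collagen chaperone, and was at 322 FPKM in control cells, 355 FPKM with NELL2 and 348 FPKM after Fn1 knockdown. Prolyl 4-hydroxylase pairs a catalytic alpha subunit with the protein disulfide isomerase P4hb. P4hb was at 341, 358 and 369 FPKM, P4ha1 at 62.9, 69.1 and 69.9 FPKM, P4ha2 at 41.6, 46.1 and 38.0 FPKM and P4ha3 at 27.3, 26.9 and 27.0 FPKM. These subunits lay between -0.13 and 0.15 in both comparisons, and P4hb stood at 5.42, 5.19 and 5.28 times P4ha1. The lysyl hydroxylases lay between 0.08 and 0.27. Plod1 was at 29.9, 31.9 and 32.5 FPKM and Plod3 at 104, 115 and 113 FPKM, whereas Plod2, which hydroxylates the telopeptides, was at 57.6, 60.8 and 69.5 FPKM, 121% of the control after knockdown.

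Colgalt1 was the enzyme farthest from the control. It encodes the galactosyltransferase that acts on hydroxylysine and lies on chromosome 8 (71610998 to 71624911, plus strand, ENSMUSG00000034807.9). It was at 50.0 FPKM in control cells, 47.0 FPKM with NELL2 and 87.0 FPKM after Fn1 knockdown. The knockdown library was at 174% of the control, a log2 ratio of 0.79, with about 3681 and 6748 estimated fragments. Unc13a, which overlaps its exons on the other strand, was at 0.622, 0.747 and 0.281 FPKM in the same order. Whether its reads enter the Colgalt1 level was not tested. Relative to Plod3, which works on the same lysines, Colgalt1 went from 0.481 and 0.410 to 0.772.

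Of the members past 1.5-fold after Fn1 knockdown, Col10a1 and Colgalt1 have a RefSeq promoter window. The 250 bases before their RefSeq starts are shown with motif matches in capitals. The RefSeq start of Colgalt1 lies downstream of its GENCODE start at 71610998, so the end of its stretch falls inside the gene as placed above.
Col10a1, chr10:34389731-34389980, plus strand, TATAAA in capitals: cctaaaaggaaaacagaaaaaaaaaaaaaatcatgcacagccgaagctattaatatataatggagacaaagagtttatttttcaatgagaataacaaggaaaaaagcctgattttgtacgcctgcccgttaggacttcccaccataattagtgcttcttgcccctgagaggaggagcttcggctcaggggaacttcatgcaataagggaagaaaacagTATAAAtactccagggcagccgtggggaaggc
Colgalt1, chr8:71610774-71611023, plus strand, GGGCGG in capitals: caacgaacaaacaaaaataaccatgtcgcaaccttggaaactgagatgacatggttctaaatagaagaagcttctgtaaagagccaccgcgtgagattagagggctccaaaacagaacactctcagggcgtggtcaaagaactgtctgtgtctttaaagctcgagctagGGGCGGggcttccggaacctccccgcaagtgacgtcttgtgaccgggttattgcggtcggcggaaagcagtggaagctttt
The motifs searched were the CCAAT box (CCAAT, on the other strand ATTGG), the TATA box (TATAAA, on the other strand TTTATA) and the GC box core (GGGCGG, on the other strand CCGCCC). Among the measured members, 32 matched the RefSeq table (GRCm38.p6), with 36 windows of 300 bases around a start. GGGCGG was in 28 of the 36 windows (77.8%) and in 35.7% of all 32851 windows, which include genes not expressed here. CCAAT was in 12 (33.3%, against 37.4%) and TATAAA in 5 (13.9%, against 13.6%). These matches are descriptions of letters and not sites shown to be bound.

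The 3 members of the procollagen cleavage step were lower after Fn1 knockdown, as were 6429 of all 12733 genes. Pcolce, the enhancer of procollagen C-proteinase, was at 220.2 FPKM in control cells, 244 FPKM with NELL2 and 155 FPKM after knockdown. Its level was highest with NELL2 and was 70.3% of the control after knockdown, a log2 ratio of -0.51. Bmp1, the C-proteinase itself, was at 55.1, 52.9 and 47.7 FPKM, and Adamts2, an N-proteinase, at 4.59, 4.39 and 3.29 FPKM. Their median log2 ratio was -0.382 after knockdown, and Bmp1 and Adamts2 were within 10% of the control with NELL2. Pcolce shares exon positions with Fbxo24 on the same strand, but Fbxo24 was at or below 0.0609 FPKM in all libraries.

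The lysyl oxidases, which start cross-linking, were found on either side of the control after Fn1 knockdown. Lox was at 775 FPKM in control cells, 821 FPKM with NELL2 and 684 FPKM after Fn1 knockdown, and Loxl2 at 308, 315 and 229 FPKM. These were the most abundant of the family and were lowest after knockdown, at 88.3% and 74.4% of the control. Loxl3 was at 103, 112 and 122 FPKM, Loxl1 at 88.2, 84.8 and 93.1 FPKM and Loxl4 at 18.4, 18.8 and 19.6 FPKM. The latter 3 were highest after knockdown, by less than 1.25-fold. Over all genes the knockdown library was the highest in 37.9% and the lowest in 40.4%. Summed over the 5 genes, the level was 1292, 1352 and 1148 FPKM.

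Other genes of the collagen pathway were read from a list of 48, of which 41 reached 1 FPKM. With NELL2, 23 were higher and 18 lower, with a median of 0.051, and 1 passed 1.5-fold (background 2.58%). This was Mmp13, the interstitial collagenase, at 21.8 FPKM in control cells, 33.3 FPKM with NELL2 and 19.3 FPKM after Fn1 knockdown. After knockdown 21 were higher and 20 lower, with a median of 0.010, and 2 passed 1.5-fold (background 6.17%). Tmem38b, an endoplasmic reticulum cation channel, was at 2.34, 2.91 and 4.10 FPKM, and Thbs1, a matricellular protein, at 2177, 2237 and 3302 FPKM. No gene of the list was called in either comparison.

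By role, the 10 measured genes of prolyl 3-hydroxylation and folding had a median of 0.229 after Fn1 knockdown, with 7 higher, and the 8 fibril regulators a median of -0.187, with 7 lower and Thbs1 the exception. Over all 12733 genes, 6302 were higher and 6429 lower after knockdown, and these counts by role were not tested. Among the folding genes, named after their values were seen, the prolyl isomerases Fkbp10 and Fkbp14 were at 142% and 144% of the control after knockdown and the prolyl 3-hydroxylase P3h1 at 127%. With NELL2 the medians of the folding genes and the fibril regulators were 0.049 and 0.057. The 8 export genes were at -0.040 with NELL2 and 0.055 after knockdown, the 4 other cleavage genes at 0.022 and 0.180, and the 5 breakdown and uptake genes at 0.122 and -0.074. Of those other cleavage genes, Adamts14, Pcolce2 and Furin had log2 ratios of 0.34, 0.24 and 0.12 after knockdown and Tll1 was level at 0.01, whereas Pcolce, Bmp1 and Adamts2 were below the control. They are named here after their values were seen.

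Collagen receptors lay on both sides of the control after Fn1 knockdown. The integrin subunit Itgb1, partner of all collagen-binding alpha subunits, was at 497 FPKM in control cells, 527 FPKM with NELL2 and 624 FPKM after Fn1 knockdown. Itga11, the highest such alpha subunit here, was at 29.7, 32.2 and 29.1 FPKM. Itga1 was at 3.69, 3.35 and 2.94 FPKM and Itga10 at 1.93, 1.66 and 1.46 FPKM, while Itga2 stayed at or below 0.214 FPKM. The knockdown library was the highest for Itgb1, at 126% of the control, and the lowest for Itga1 and Itga10, at 79.7% and 75.8%, and for Itga11, at 98.0%. The discoidin domain receptors, kinases that bind collagen, were at 25.6, 26.6 and 30.0 FPKM for Ddr1 and 68.5, 71.1 and 73.9 FPKM for Ddr2. The 6 measured receptors had a median of 0.055 with NELL2 and 0.039 after knockdown.

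**Figure D5:**
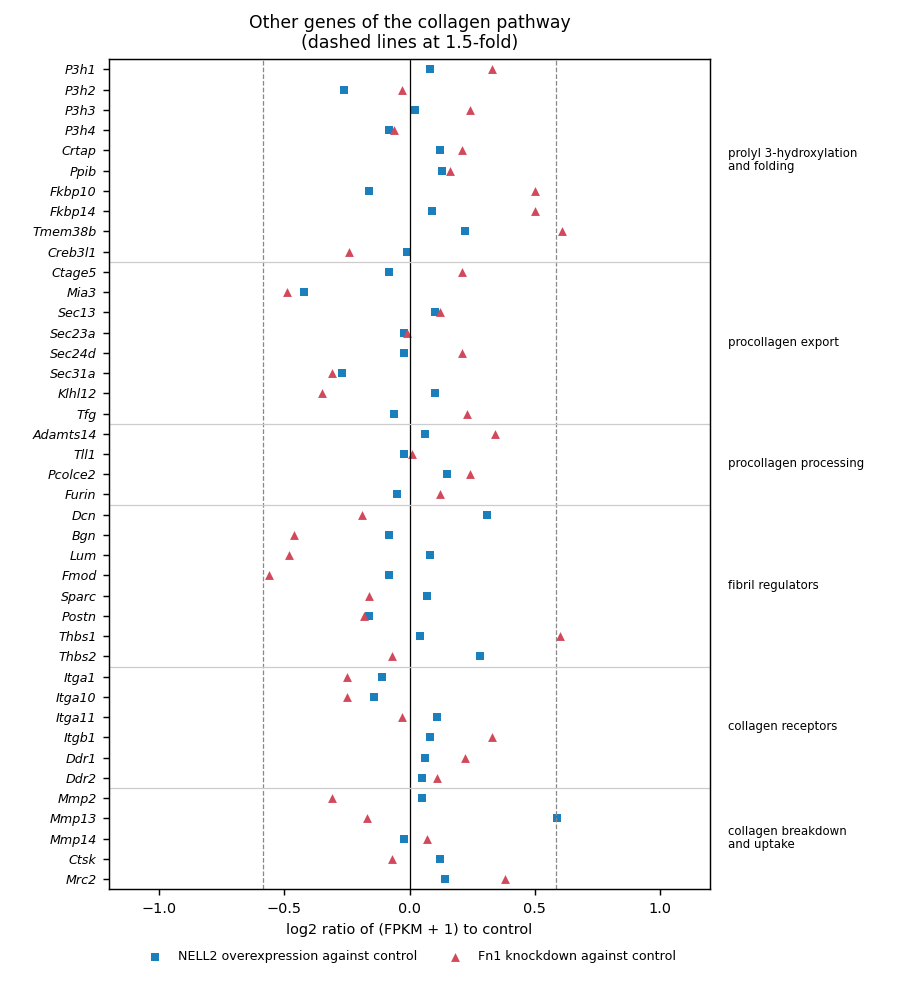
Log2 ratio of FPKM + 1 to the control for the 41 other collagen pathway genes at 1 FPKM or more, with NELL2 overexpression as blue squares and Fn1 knockdown as red triangles, grouped by role, and dashed lines at 1.5-fold. Mmp13 (0.59) is the square past the line, and Tmem38b (0.61) and Thbs1 (0.60) are the triangles past it.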

How the data were processed

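Polyadenylated RNA from 3 ST2 cultures was sequenced as paired 150 bp reads on an MGISEQ-2000. The submitters' processing notes name HISAT2, DESeq and GRCm38. The deposited values used here were FPKM per gene, computed by the authors. The program and annotation behind FPKM and the use of strand are not given in the sources used here.

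Members and lists were chosen with earlier results of these data known. Genes reaching 1 FPKM in at least 1 library were compared as log2(FPKM + 1), with no test since each group had 1 library. A 2-fold difference was called. Values are given for members at 10 FPKM or more or past 1.5-fold, for other pathway genes past 1.5-fold and for collagen receptors. Members printed outside this rule, and the genes Sox9, Acan and Comp, were chosen after their values were seen. Alternatives changed the pseudocount, filter, fold, scaling and overlapping or dominant genes. Depth came from the spacing of low FPKM values over 13865 genes with 1 transcript and at least 600 bases. Since 25.2% to 26.3% of those values came within 0.02 of whole fragments, whole reads were not recovered and fragments are approximate and cover counting error only. Names were matched to GENCODE M21 (61 of 61 members), and promoter windows to RefSeq (46 of 61). Mia2 was listed as Ctage5. Python 3.11.15, pandas 2.3.3, numpy 2.4.6 and matplotlib 3.10.9 were used.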

Additional observations from a re-analysis of the deposited data

How the results depend on the processing

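Counts of called members moved with the fold and the pseudocount. After Fn1 knockdown, 1 member was called at 2-fold, 3 at 1.5-fold and 0 at 4-fold, with 2 at a pseudocount of 0.1 (Col10a1 added, at 1.01) and 0 at a pseudocount of 5 (Col2a1 at 0.99). Limits chosen after seeing the data gave 17 at 1.25-fold and 13 at 1.25-fold from both other libraries. With NELL2, 0 members were called at 2-fold and 2 at 1.25-fold. The member median with NELL2 was 0.030 and turned to -0.016 with no filter on low values. The summed collagen level after Fn1 knockdown was 105% of the control, 120.1% without Col1a1, Col1a2 and Col3a1, and 97.8% without Col2a1, the last chosen after seeing the data. With NELL2 it was 103%, and 97.8% without Col1a1, Col1a2 and Col3a1. The sums moved through the genes left out, and for the other changes the cause was not tested. Of 344 values of single members under other pseudocounts and scalings, 342 kept their side of 2-fold, and filters cannot move such a value. Most members lay far from 2-fold at the outset, so this count says little about stability. Col10a1 after Fn1 knockdown kept its side but went from 0.65 to 0.25 at a pseudocount of 5. Values near 0 may change sign within 0.1, as for P4ha3 after Fn1 knockdown, at -0.01 and 0.00 with median-of-ratios scaling. Median-of-ratios factors were 1.003, 1.009 and 0.993, so that scaling tests little. No paired analysis was possible because the 3 groups hold 1 library each, and no replicate could be left out. Members below 1 FPKM in every library entered ratios only in the setting with no filter.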
